A study of Homo sapiens with 288 samples.

Results

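Single trophoblast-like (TB) cells were compared by how much TFAP2C they held. Of the 51 TB cells of the EQ experiment, 48 passed the study's limits on a library, at least 5.4 on the log10 scale of summed counts and at most 31% of counts in the 50 most abundant genes. These 48 cells were ranked by TFAP2C in CPM, a cell's counts scaled to the same sum in every cell, and the 24 cells above the middle of the ranking (TFAP2C-high) were set against the 24 below it (TFAP2C-low). The series holds 288 libraries in all.

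All cells came from H1, an established human embryonic stem cell line. TB cells were grown in E7, which is E8 medium without FGF2, with BMP4 and SB431542, an inhibitor of activin and TGF-beta type I receptors. The other cell type, endothelial cells (EC), was made from H1 in E8 with BMP4 and Activin A, and later with VEGF and WNT. Cells were captured on a Fluidigm C1 chip and their full-length cDNA was amplified before the libraries were made. In EQ every cell entered library preparation with the same amount of cDNA and libraries were pooled at equal volume. EQ-75% repeated those steps on the same cDNA at lower sequencing depth, and EQ-Vary pooled the libraries in unequal volumes. No label separates the TB cells into cultures, so they are 1 sample, and the 24 cells of a group are not replicates of a condition.

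The cells were chosen by a measured value, so TFAP2C itself is a description. No test was made for any gene, because all TB cells form 1 sample, and no p-value is given. For each other gene the mean CPM ± SD between cells is given (n = 24 in each group), with the fold between the group means after 1 CPM was added to both. The pair share is the percentage of all pairs of a TFAP2C-high and a TFAP2C-low cell in which the TFAP2C-high cell had the larger CPM, so 50% means no preference. A gene was called higher when the fold was at least 1.5 and the pair share at least 65%, and lower when the fold was at least 1.5 in the other direction and the pair share at most 35%. How many genes any other division of these cells would put past these limits was not tested.

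TFAP2C encodes AP-2 gamma, a transcription factor of the AP-2 family that binds GC-rich sites as a dimer. It is used with GATA2, GATA3 and TFAP2A as a mark of trophoblast, and it is also expressed in amnion, surface ectoderm and primordial germ cells. AP-2 factors recognise the palindrome GCCNNNGGC, where N is any base.

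The 250 bases before each RefSeq start of a gene (build GRCh38.p14) were searched for GCCNNNGGC, which reads the same on both strands. A gene with several starts was counted when any of them had a match. Promoters were found for 211 of the 257 genes higher in both EQ and EQ-75%, for 211 of the 256 lower in both and for 8150 of the 9954 genes compared. A match stood in the promoters of 80 of the 211 higher genes (37.9%) and 62 of the 211 lower genes (29.4%), beside 33.3% of the compared genes and 6283 of all 27305 genes in the table. The median share of C and G in these promoters was 65.2% for the higher genes, 63.6% for the lower genes, 64.0% for the compared genes and 58% for all genes in the table. The 211 higher genes had 318 starts, the 211 lower genes 309, the 8150 compared genes 11901 and all 27305 genes 35116. More starts per gene give more chances of a match. The parts of base composition and of the number of starts in the match shares were not tested. These shares are descriptions and were not tested.

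The promoters of 3 genes higher in TFAP2C-high cells and 2 lower in them are shown, to set a gene with matches beside one without in each direction. They are written 5′ to 3′ on the strand of the gene, with GCCNNNGGC in capitals. FOSL2, the gene with the highest pair share, has no match at chr2:28392608-28392857 (plus strand). SLC12A2 has GCCNNNGGC matches that begin 247 and 94 bases before the start, at chr5:128083516-128083765 (plus strand). SERINC5 has a match that begins 62 bases before the start, at chr5:80256049-80256298 (minus strand). Of the lower genes, SCD has a match that begins 230 bases before the start, at chr10:100346983-100347232 (plus strand), and CMPK1, the gene with the lowest pair share, has none at chr1:47333540-47333789 (plus strand).
FOSL2: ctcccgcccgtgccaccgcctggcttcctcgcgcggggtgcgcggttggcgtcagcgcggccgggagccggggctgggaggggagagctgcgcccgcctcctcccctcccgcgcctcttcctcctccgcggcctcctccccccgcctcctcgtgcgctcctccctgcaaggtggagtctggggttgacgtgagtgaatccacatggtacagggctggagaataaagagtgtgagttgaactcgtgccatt
SLC12A2: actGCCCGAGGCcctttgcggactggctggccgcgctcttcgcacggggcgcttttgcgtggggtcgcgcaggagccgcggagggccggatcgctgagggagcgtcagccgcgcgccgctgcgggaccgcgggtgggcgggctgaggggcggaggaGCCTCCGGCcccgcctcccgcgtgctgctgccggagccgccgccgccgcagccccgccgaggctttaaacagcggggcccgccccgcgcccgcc
SERINC5: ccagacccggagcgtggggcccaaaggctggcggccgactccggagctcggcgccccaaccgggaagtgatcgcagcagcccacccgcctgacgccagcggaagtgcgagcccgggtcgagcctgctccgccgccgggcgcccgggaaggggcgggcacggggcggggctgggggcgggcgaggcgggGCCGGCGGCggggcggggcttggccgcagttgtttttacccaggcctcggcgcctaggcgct
SCD: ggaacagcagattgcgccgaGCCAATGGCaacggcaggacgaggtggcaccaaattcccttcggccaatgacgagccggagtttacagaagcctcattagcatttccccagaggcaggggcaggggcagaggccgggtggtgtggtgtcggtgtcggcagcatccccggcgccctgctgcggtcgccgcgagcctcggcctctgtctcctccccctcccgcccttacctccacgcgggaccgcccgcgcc
CMPK1: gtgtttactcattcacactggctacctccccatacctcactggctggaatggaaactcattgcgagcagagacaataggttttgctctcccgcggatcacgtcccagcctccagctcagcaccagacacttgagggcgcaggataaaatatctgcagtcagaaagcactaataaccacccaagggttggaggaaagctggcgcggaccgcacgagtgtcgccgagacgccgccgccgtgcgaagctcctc

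In EQ, TFAP2C ranged from 18.9 to 273 CPM in the TFAP2C-low cells, with a median of 147, and from 273 to 1842 CPM in the TFAP2C-high cells, with a median of 457. The groups held 7259 and 31275 TFAP2C counts in sum, with exact 95% Poisson intervals of 7093 to 7427.9 and 30929.3 to 31623.6 that cover counting error only. TFAP2C had at least 1 count in each of the 48 cells, so the groups are low and high cells of a continuous range and not cells without and with the gene. The values had no gap at the middle of the ranking. The last cells inside the TFAP2C-low group were TB 18 at 266.8 CPM and TB 38 at 272.7 CPM, and the first inside the TFAP2C-high group were TB 24 at 272.8 CPM and TB 26 at 306.9 CPM. In the 38 EC cells that passed the same limits, TFAP2C had a median of 1.06 CPM, and 1 EC cell reached 995 CPM.

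**Figure D1:**
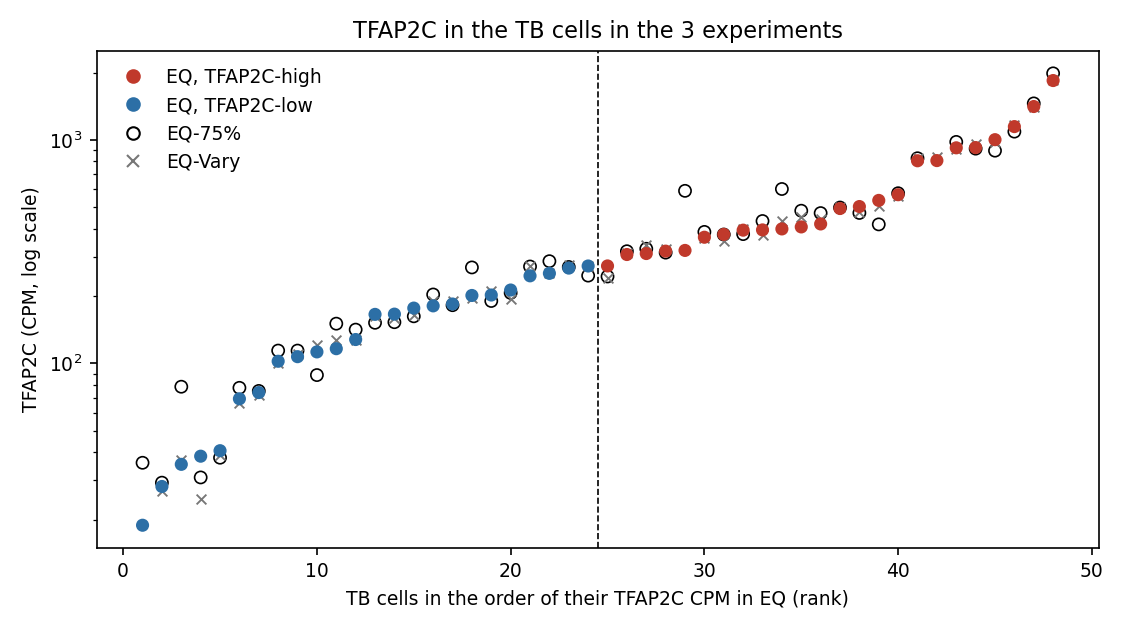
TFAP2C in CPM (log axis) for the 48 TB cells in the order of their EQ value, with filled points for EQ (red TFAP2C-high, blue TFAP2C-low), open circles for EQ-75% and crosses for EQ-Vary where the cell passed there. The dashed line marks the division, and the cells beside it, TB 38 and TB 24, differ by less than 1 CPM.

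The ranking was nearly the same in the other libraries of the same cDNA. Of the 47 cells that also passed in EQ-75%, 45 stayed on the same side of the median, with TB 24 and TB 50 changing sides, and Spearman's rho between the TFAP2C values was 0.980. In EQ-Vary 44 of 46 cells stayed, with TB 18 and TB 24 changing sides, and rho was 0.997. In EQ-75% the TFAP2C-high cells had a median of 482 CPM and the TFAP2C-low cells 151 CPM. These libraries repeat library preparation and sequencing of one cDNA per cell, not the capture, the amplification or the cells.

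Depth and detection differed little between the groups. Summed counts per cell ran from 365536 to 3092371 in TFAP2C-high and from 494169 to 3479243 in TFAP2C-low cells, with a pair share of 51.2%. Thinned to 250000 counts, the median cell had 7323 genes detected in TFAP2C-high and 7380.5 in TFAP2C-low. Of the TFAP2C-low cells, TB 7 and TB 9 stood apart from the other 46 cells. Their cytosolic ribosomal protein genes summed to 31224 and 25172 CPM, where the other cells had at least 62305, and their MTRNR2L genes, nuclear copies of the mitochondrial 16S rRNA gene, to 75739 and 35094 CPM, where the others had at most 18323. Several of the results below are also given without these cells.

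The trophoblast label was checked against marker lists. The 27 trophoblast transcription factors summed to between 628 and 2753 CPM in the 48 TB cells and to between 98.3 and 1200 CPM in EC cells, and the 15 cytotrophoblast surface and keratin genes to between 3025 and 18174 CPM in TB and 77.1 and 3488 CPM in EC. The 20 endothelial genes summed to at most 613 CPM in any TB cell, against a median of 6743 CPM in EC, and CLDN5 was at 0 in every TB cell. Not every defining marker was present. EOMES and PAGE4 were at 0 in every TB cell, and CDX2, a trophectoderm factor, had counts in 0 TFAP2C-high cells and 1 TFAP2C-low cell. Of 21 syncytiotrophoblast genes found in the data, CGB, CSH1, GH2 and KISS1 were at 0 in every TB cell, and 3 reached a mean of 5 CPM. The 9 amnion-associated genes found in the data, VTCN1 and ISL1 among them, summed to between 684 and 7997 CPM in TB and at most 593 CPM in EC. The highest TB sums, 7997 and 7926 CPM, were those of TB 7 and TB 9, and the next was 6296 CPM in TB 11. POSTN, KRT24 and WNT6 contributed little to these sums. POSTN was at 0 in every TB cell, and KRT24 and WNT6 had means below 5 CPM. Which of these lineages the TB cells match best was not tested.

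Of 9954 genes with a mean of at least 5 CPM, TFAP2C left out, 372 (3.74%) were higher and 370 (3.72%) lower in TFAP2C-high cells in EQ. All 742 had the same sign in EQ-75%, where 257 (2.58% of genes compared) were again past the limits as higher and 256 (2.57%) as lower. The log2 ratios of EQ and EQ-75% had a Pearson correlation of 0.975 across genes, which are not independent and share the cells and the cDNA. In all 3 experiments 204 genes were higher and 197 lower. The median log2 ratio over all genes compared was -0.04, with 4714 genes (47.4%) above 0 and 5240 below. No gene separated the groups: pair shares ran from 16.7% to 83.0%.

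The list of called genes depended on the cells at the middle of the ranking. When TB 24 and TB 38, whose TFAP2C values differed by less than 1 CPM, exchanged groups, 344 genes were higher and 325 lower, but only 240 of the 372 and 229 of the 370 were the same genes. Without TB 7 and TB 9, 389 genes were higher and 401 lower, of which 293 and 293 were shared with the first lists. With DESeq2's median-of-ratios size factors in place of total counts, which moved the median log2 ratio of all genes to 0.13, 481 genes were higher and 275 lower, and 225 and 163 were shared. A core of 65 higher and 54 lower genes passed the same limits in all 3 experiments and under each of 12 other choices of cells, division or scaling. To it belonged 11 of the 15 named genes with the highest and 9 of the 15 with the lowest pair share. The choices share cells and cDNA and overlap with each other. Core membership is therefore a selection from these data and no independent evidence for a gene.

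**Figure D2:**
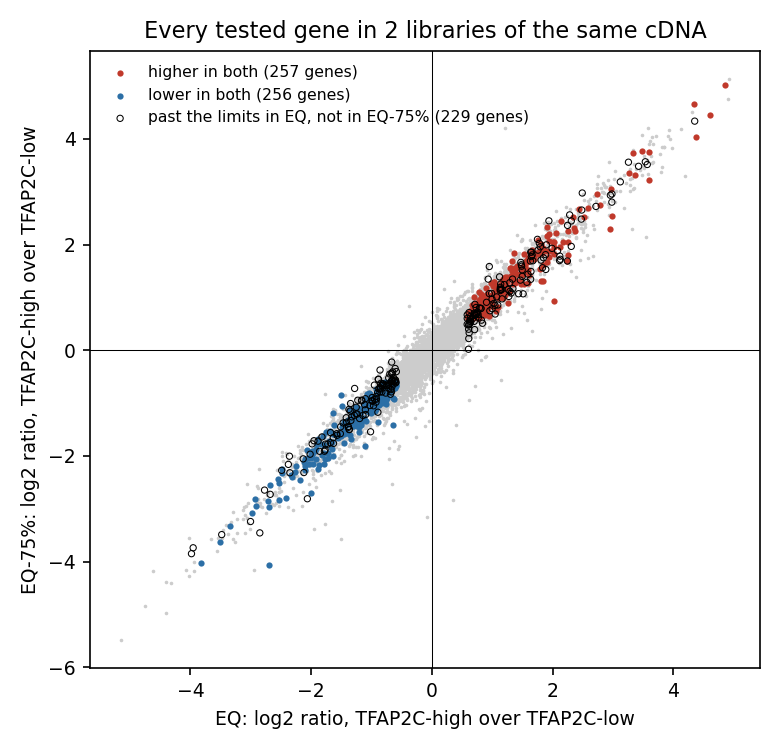
The log2 ratio of mean CPM (TFAP2C-high over TFAP2C-low) of every gene compared, in EQ (x axis) and EQ-75% (y axis). Red points mark the 257 genes higher and blue points the 256 lower in both, open circles the 229 genes past the limits in EQ and not in EQ-75%, and grey points all other genes. The points follow the diagonal because both axes come from the cDNA of the same cells.

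Among the genes higher in TFAP2C-high cells, FOSL2 had the highest pair share. It encodes the AP-1 subunit Fra-2 and ran from 2.86 CPM through a median of 50.4 to 511 CPM in TFAP2C-high cells and from 0 through 5.84 to 121 CPM in TFAP2C-low cells. Its mean was 96.0 ± 117 against 19.4 ± 32.97 CPM, 4.76-fold higher with a pair share of 83.0%, and 4.14-fold higher in EQ-75%. Every TFAP2C-high cell and 21 of 24 TFAP2C-low cells had a FOSL2 count, and the groups overlapped over most of their range. ZNF800, a zinc finger protein, had counts in all 24 TFAP2C-high cells and 14 TFAP2C-low cells, with medians of 20.5 and 0.890 CPM and a pair share of 79.9%. Both genes belonged to the core.

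Of the AP-2 family, TFAP2B was the member that passed the limits. It had a median of 112 CPM in TFAP2C-high and 38.5 CPM in TFAP2C-low cells, and its highest value, 538 CPM, was in a TFAP2C-low cell. The mean was 128 ± 82.9 against 71.2 ± 109 CPM, 1.78-fold higher with a pair share of 76.0%, and 1.84-fold higher in EQ-75%. It was not in the core. TFAP2A did not pass, with medians of 251 and 176 CPM, a fold of 1.197 and a pair share of 58.7%. TFAP2E had a count in 1 cell and TFAP2D in none.

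Further genes higher in TFAP2C-high cells encode membrane or lipid proteins, which were not counted as a list. ABCA1, which exports cholesterol and phospholipid from the cell and is induced through the LXR nuclear receptors, ran from 1.25 through 232 to 1683 CPM in TFAP2C-high cells and from 1.001 through 8.47 to 774 CPM in TFAP2C-low cells. The mean was 351 ± 410.2 against 63.8 ± 161 CPM, 5.43-fold higher with a pair share of 77.8%, and 6.35-fold higher in EQ-75%. Its highest TFAP2C-low cell exceeded the TFAP2C-high median, while the TFAP2C-low median lay far below it. SLC12A2, the sodium-potassium-chloride cotransporter NKCC1, had its lowest value in TFAP2C-high cells at 615 CPM and in TFAP2C-low cells at 35.4 CPM, with medians of 1395 and 796 CPM, a fold of 1.73 and a pair share of 78.5%. SERINC5, a multipass membrane protein of the serine incorporator family, had medians of 2158 and 1089 CPM, a fold of 1.73 and a pair share of 72.9%. CDS2, which makes CDP-diacylglycerol for phosphoinositide synthesis, was 1.79-fold higher with a pair share of 77.4%, and TMEM159, a lipid droplet protein also called LDAF1, was 2.56-fold higher with a pair share of 77.6%.

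The other genes of highest pair share had no single function. SH3BGRL2, a small thioredoxin-fold protein, ran from 58.4 through 918 to 2973 CPM in TFAP2C-high and from 33.3 through 427 to 1825 CPM in TFAP2C-low cells, 2.23-fold higher with a pair share of 82.8%. CCDC3, a secreted coiled-coil protein, had medians of 168 and 18.03 CPM, a fold of 3.77 and a pair share of 81.8%. PRSS12, a secreted serine protease, had medians of 269 and 37.4 CPM, a fold of 2.98 and a pair share of 78.6%. METTL23, a methyltransferase, had counts in 22 TFAP2C-high and 12 TFAP2C-low cells, with a fold of 3.24 and a pair share of 78.6%. GPANK1 was 2.27-fold higher with a pair share of 80.4%. All 5 were in the core. CNN3, an actin-binding calponin, ACVR2B, an activin receptor, SRRM2, a splicing factor, and FAM195B were higher by 1.56-fold, 2.25-fold, 1.77-fold and 2.87-fold, with pair shares of 76.0% to 77.1%, and were not in the core.

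**Figure D3:**
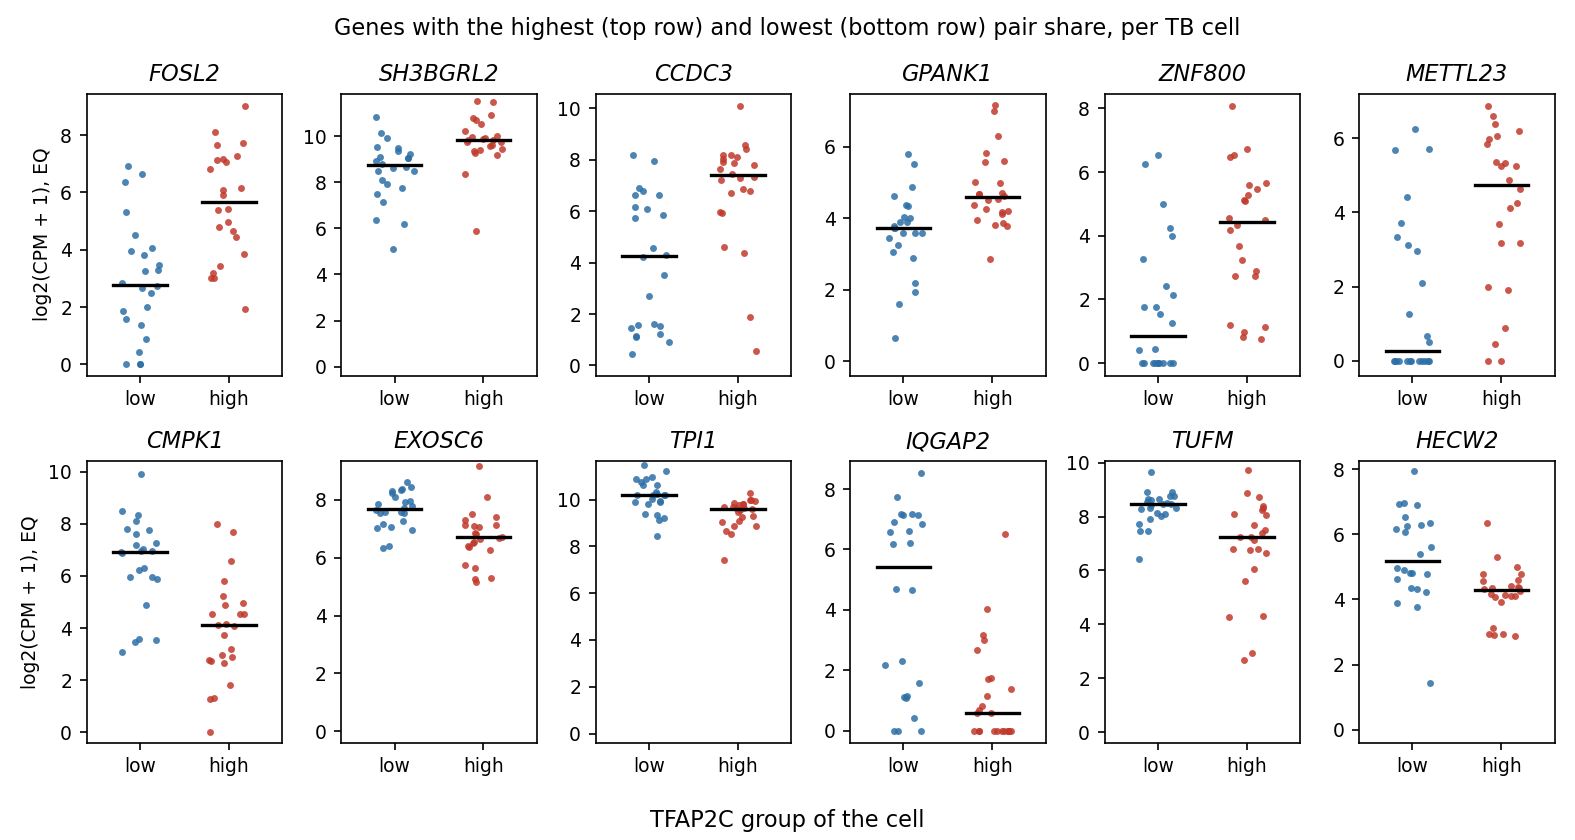
log2(CPM + 1) in EQ for each of the 48 TB cells (24 TFAP2C-low in blue, 24 TFAP2C-high in red, black bars at the group medians). The top row holds the 6 genes with the highest and the bottom row the 6 with the lowest pair share among genes past the limits in EQ and EQ-75%, and the groups overlap for every gene.

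The lower genes were led by CMPK1, the UMP/CMP kinase that supplies pyrimidine nucleotides. It ran from 0 through 16.2 to 256 CPM in TFAP2C-high cells and from 7.55 through 121 to 971 CPM in TFAP2C-low cells. The mean was 36.7 ± 63.9 against 161 ± 198 CPM, 4.30-fold higher in TFAP2C-low cells with a pair share of 16.7%, and 4.80-fold higher there in EQ-75%. EXOSC6, a subunit of the RNA exosome, had medians of 103 and 205 CPM and a pair share of 17.0%, and was 1.70-fold higher in TFAP2C-low cells. IQGAP2, a scaffold protein of the actin cytoskeleton, had counts in 13 TFAP2C-high and 21 TFAP2C-low cells, with medians of 0.501 and 47.97 CPM, and its mean was 11.3-fold higher in TFAP2C-low cells. Its 199 counts over all TFAP2C-high cells carried an exact 95% Poisson interval of 172.3 to 228.7. CMPK1, EXOSC6 and IQGAP2 were in the core.

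The other genes of lowest pair share outside metabolism had varied functions. MRTO4 and RIOK1, which act in ribosome assembly, were 2.48-fold and 3.72-fold higher in TFAP2C-low cells. TUFM, the mitochondrial elongation factor Tu, had medians of 150.4 and 351 CPM and a pair share of 20.8%. MGST1, a membrane-bound glutathione transferase, had medians of 172 and 348 CPM, and CHAF1B, a chromatin assembly factor subunit, 32.8 and 53.9 CPM. HECW2, a ubiquitin ligase, was 2.74-fold and SEMA5A, a guidance molecule, 1.93-fold higher in TFAP2C-low cells, with pair shares of 21.5% and 22.9%. The group ranges overlapped for each of them. RIOK1, MGST1, HECW2 and SEMA5A were in the core, and MRTO4, TUFM and CHAF1B were not. The log2 ratio of MRTO4 lay between -1.51 and -0.37 over all choices tried.

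Of the 25 gene lists examined, fatty acid and sterol synthesis had the most genes lower in TFAP2C-high cells. The list of 32 such genes was written after SCD, ACLY and ELOVL6 had been seen among the 15 lowest pair shares, so its count describes the set and is no independent evidence of its direction. Of 31 members compared, 0 were higher, 13 were lower in EQ (3.72% of all genes compared) and 11 in both experiments (2.57% of all), and 29 had a negative log2 ratio, with a median of -0.81 beside -0.04 over all genes. Without TB 7 and TB 9 the median was -0.66, and over all choices tried it lay between -0.89 and -0.63. Of the 11 genes, 7 were in the core.

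In fatty acid synthesis, ACLY makes cytosolic acetyl-CoA, ELOVL6 lengthens the chain, and SCD and FADS2 desaturate it. SCD ran from 54.7 through 347 to 1188 CPM in TFAP2C-high cells and from 22.7 through 919.7 to 3146 CPM in TFAP2C-low cells. The mean was 457 ± 331 against 1252 ± 987 CPM, 2.73-fold higher in TFAP2C-low cells with a pair share of 23.6%, and 2.72-fold higher there in EQ-75%. Values above 1188 CPM were found in TFAP2C-low cells alone, while low values were found in both groups. ELOVL6 had medians of 233 and 437 CPM and ACLY of 90.7 and 295 CPM, and they were 2.27-fold and 2.02-fold higher in TFAP2C-low cells. FADS2 was low in both groups, with counts in 15 TFAP2C-high and 20 TFAP2C-low cells and medians of 1.08 and 5.72 CPM. LPIN1, a phosphatidate phosphatase of triglyceride synthesis, was 2.93-fold higher in TFAP2C-low cells.

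In sterol synthesis, ACAT2 and HMGCS1 act at the start of the mevalonate pathway, FDPS makes farnesyl diphosphate, and EBP and C14orf1 (now ERG28) act in or hold together the late steps to cholesterol. ACAT2 ran from 1.25 through 86.9 to 416 CPM in TFAP2C-high cells and from 4.69 through 321 to 1496 CPM in TFAP2C-low cells, 3.27-fold higher in the latter with a pair share of 27.1%. HMGCS1 was 2.46-fold, FDPS 2.90-fold, EBP 2.37-fold and C14orf1 1.93-fold higher in TFAP2C-low cells, with pair shares from 25.7% for EBP to 31.1% for C14orf1. FDFT1, which makes squalene, did not pass, with 560.4 ± 351 against 858 ± 653 CPM and a pair share of 38.7%. ABCA1, which removes sterol from the cell, was higher in the group in which these synthesis genes were lower. Of the other 5 compared members of a list of sterol efflux and LXR target genes, also written after ABCA1 was seen, 0 passed the limits, and the median of that list turned from 0.61 to -0.17 under median-of-ratios scaling.

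The summed CPM of the 32 synthesis genes ran from 2024 through 3259.8 to 9906 in TFAP2C-high cells and from 2637 through 5191 to 17406 in TFAP2C-low cells. Across the 48 cells Spearman's rho of this sum with TFAP2C was -0.37, but it was -0.14 within the 24 TFAP2C-low cells and 0.36 within the 24 TFAP2C-high cells. The relation within the TFAP2C-high cells had the opposite sign to that over all cells. Further values are given over all cells, with those within TFAP2C-low and then TFAP2C-high cells in brackets. With the summed glycolysis genes rho was 0.53 (0.62, 0.23) and with the G2/M genes 0.42 (0.45, 0.33). With the ribosomal protein genes it was -0.56 (-0.43, -0.68), with the MTRNR2L genes 0.06 (-0.56, 0.43) and with the summed counts of the cell 0.07 (0.24, -0.08). All of these values come from 1 library per cell and share its total.

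**Figure D4:**
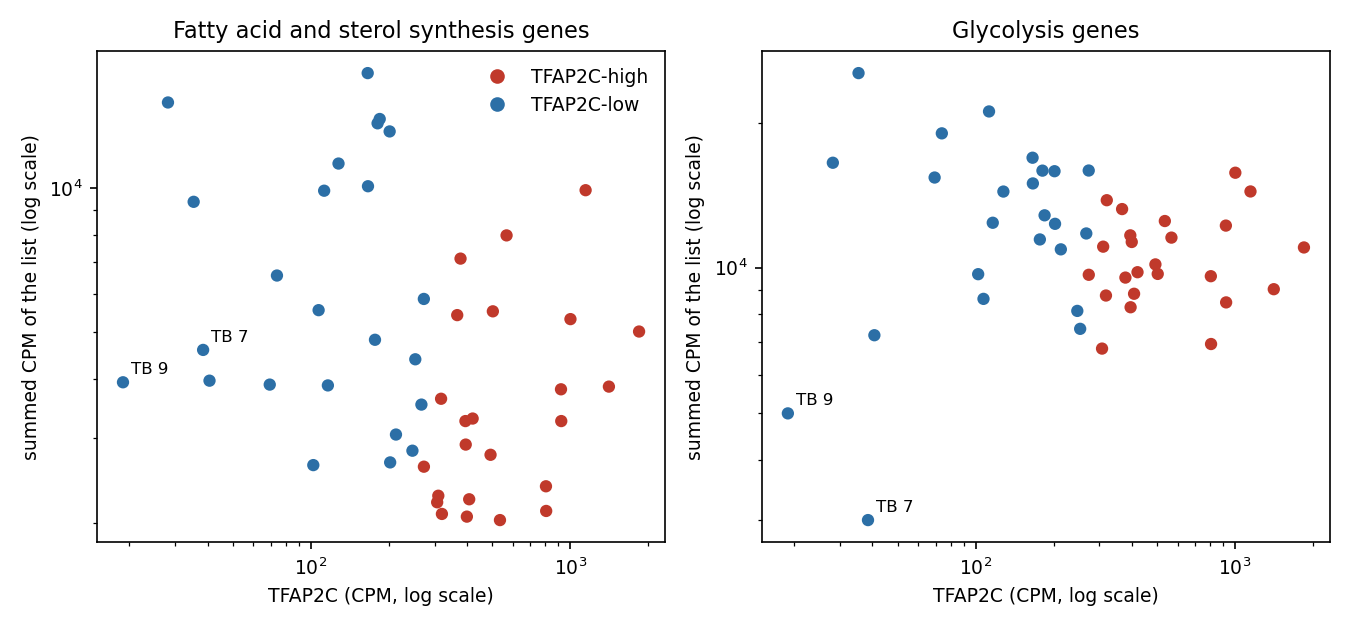
Summed CPM of the fatty acid and sterol synthesis genes (left) and of the glycolysis genes (right) against TFAP2C CPM for the 48 TB cells, on log axes, with TFAP2C-high cells in red and TFAP2C-low cells in blue. Spearman's rho with TFAP2C is -0.37 for the left and -0.20 for the right sums. The highest sums in both panels are in TFAP2C-low cells, and TB 7 and TB 9, which are marked, have the lowest glycolysis sums.

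Of 18 glycolysis genes compared, 0 were higher, 5 were lower in EQ, beside 3.72% of all genes, and 4 in both experiments (TPI1, ENO1, PKM and SLC2A3), beside 2.57% of all genes, and 14 had a negative log2 ratio, with a median of -0.60. TPI1, triosephosphate isomerase, ran from 171 through 784 to 1248 CPM in TFAP2C-high cells and from 348 through 1158 to 2821 CPM in TFAP2C-low cells, 1.75-fold higher in the latter with a pair share of 19.3%. ENO1, an enolase, was 2.34-fold, SLC2A3, the glucose transporter GLUT3, 1.71-fold and PKM, pyruvate kinase, 1.63-fold higher in TFAP2C-low cells. GAPDH, glyceraldehyde-3-phosphate dehydrogenase, had means of 5709 ± 1651 and 5642 ± 2286 CPM and a pair share of 48.1%. The median of the list was -0.66 without TB 7 and TB 9 and -0.32 under median-of-ratios scaling. Of the 4 genes, 1 (ENO1) was in the core.

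The pentose phosphate pathway, which supplies ribose and NADPH, was split, in a list of 7 genes written after TALDO1 was seen. TKT and TALDO1, of its non-oxidative arm, were 2.28-fold and 1.604-fold higher in TFAP2C-low cells, while PGLS, of its oxidative arm, was 3.49-fold higher in TFAP2C-high cells. The median over the 7 genes was 0.07. The direction of PGLS turned under median-of-ratios scaling, with a log2 ratio of -0.10.

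Of 20 S-phase genes compared, 0 were higher and 2 lower in EQ and again in EQ-75% (RRM1 and RRM2, the subunits of ribonucleotide reductase), beside 3.72% and 2.57% of all genes, and 17 had a negative log2 ratio. Their median was -0.43, but -0.21 with TB 24 and TB 38 exchanged and -0.06 under median-of-ratios scaling. Of 29 G2/M genes, 0 were higher, 3 lower in EQ and 1 in both (CDC20, an activator of the anaphase-promoting complex), which is close to the share of all genes in both, and 18 had a negative log2 ratio. Their median was -0.27, but -0.08 with TB 24 and TB 38 exchanged and -1.49 between the upper and lower 16 cells. The summed G2/M genes ran from 91.4 through 480.1 to 7738 CPM in TFAP2C-high cells and from 179 through 677 to 9029 CPM in TFAP2C-low cells, so both groups held cells high in G2/M genes. RRM2 had medians of 10.1 and 31.5 CPM and a pair share of 26.04%, and RRM1 turned to a log2 ratio of 0.21 under median-of-ratios scaling. Left without the 12 cells highest in G2/M genes and divided anew, 36 cells gave a median of -0.89 for the fatty acid and sterol synthesis genes and -0.65 for glycolysis. The part of the cell cycle in the other results was not tested further.

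No member of the trophoblast transcription factor, cytotrophoblast and pluripotency lists passed the limits. Of 20 trophoblast transcription factors compared, 0 passed the limits, and the median was 0.12, with GATA3 at 218 ± 155 against 254 ± 162 CPM (pair share 43.2%) and HAND1 at 236 ± 117 against 202 ± 127 CPM (pair share 61.6%). Of 14 cytotrophoblast surface and keratin genes 0 passed, with a median of -0.05, and KRT8 and KRT18 had pair shares of 39.4% and 42.2%. Of 12 pluripotency genes 0 passed, although 11 had a negative log2 ratio and their sum had a pair share of 31.8%, and the median of -0.26 became -0.05 without TB 7 and TB 9. Of 4 compared members of a list of genes described as AP-2 targets 0 passed, with a median of 0.31 that became -0.01 between the upper and lower 16 cells. Of all genes compared 3.74% were higher and 3.72% lower, so each of these lists alone would give few genes past the limits. Whether 0 over these lists together falls short of both shares was not tested.

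Single members of other lists passed in both experiments, where 2.58% of all genes compared were higher and 2.57% lower. Of 6 amnion-associated genes compared, with a median log2 ratio of 0.28 (0.75 without TB 7 and TB 9), 1 was higher and 0 lower. It was ISL1, a LIM homeodomain factor expressed in amnion, with medians of 109 and 5.71 CPM. ISL1 was 2.31-fold higher in TFAP2C-high cells with a pair share of 69.6% and was in the core, whereas VTCN1 had medians of 1114 and 1118 CPM. Of 9 extravillous trophoblast genes compared, 4 had a positive and 5 a negative log2 ratio, with 0 higher and 1 lower in both experiments. The lower gene was MMP2, a matrix metalloprotease, with medians of 2.88 and 42.6 CPM. MMP2 was 4.10-fold higher in TFAP2C-low cells, and it too was in the core. ITGA2 of the same list did not pass in both experiments and had a log2 ratio of 1.80. Of 21 epithelial junction genes, DSG2 and CLDN3 were higher, by 1.58-fold and 2.42-fold, and CDH3, P-cadherin, was 1.57-fold higher in TFAP2C-low cells. Of 16 immediate early and stress genes, JUN was 2.17-fold higher with a pair share of 66.1%, and GADD45B had counts in 13 TFAP2C-high cells, up to 219 CPM, and in 6 TFAP2C-low cells, up to 1.67 CPM. FOS and EGR1 did not pass, with pair shares of 59.0% and 67.2% and folds of 1.32 each. Of 10 imprinted placental genes compared, CDKN1C, a cyclin-dependent kinase inhibitor expressed from the maternal allele, was 1.71-fold higher in TFAP2C-high cells. Of 6 DNA methylation genes, TET3, a methylcytosine dioxygenase, was 2.10-fold higher there. Of 10 mesoderm and mesenchyme genes, 4 had a positive and 6 a negative log2 ratio, with a median of -0.006. CDH2, N-cadherin, was 1.72-fold higher in TFAP2C-high cells, and LUM, a proteoglycan of connective tissue, 1.74-fold higher in TFAP2C-low cells. DCN and COL3A1 of the same list did not pass and had log2 ratios of 1.11 and 0.33.

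Other lists had no member past the limits in both experiments, or 1. Of 3 syncytiotrophoblast genes compared, 11 BMP and TGF-beta response genes, 4 germ cell progenitor genes, 2 endothelial genes and 6 p53 target and apoptosis genes, 0 passed in EQ. As 3.74% of all genes compared were higher and 3.72% lower, lists of so few genes would each give few past the limits. Whether 0 over these lists together falls short of both shares was not tested. The list medians of the log2 ratio, in the same order, were -2.22, -0.34, -0.36, 0.50 and -0.93. The median pair shares, again in that order, were 44.3%, 50%, 49.7%, 52.3% and 46.6%. The summed syncytiotrophoblast genes had medians of 22.1 CPM in TFAP2C-high and 60.0 CPM in TFAP2C-low cells, with a highest value of 1401 CPM in TFAP2C-low cells. The median log2 ratios, of few genes each, moved with the processing. Under median-of-ratios scaling the syncytiotrophoblast median was -1.13, the BMP and TGF-beta median -0.19 and the germ cell median -0.16. The BMP and TGF-beta median was -0.04 without the 12 cells highest in G2/M genes, and the p53 median was -0.23 without TB 7 and TB 9. The 9 extravillous trophoblast genes had a median of -0.51, with MMP2 as the member lower in both experiments. That median was 0.06 without TB 7 and TB 9, and 0.46 without the 12 cells highest in G2/M genes. The 6 MTRNR2L genes had a median of -0.58, and of -0.10 without TB 7 and TB 9. Their part in the other results was not tested beyond leaving out those cells.

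Core genes outside the named sets were looked at after their values were seen, and 8 with described functions are given. SOX9, a transcription factor of progenitor cells, had medians of 52.96 and 1.70 CPM and means of 154 ± 228 and 15.0 ± 32.6 CPM, a fold of 9.68 with a pair share of 75.1%. ATF1, a CREB family factor, was 4.79-fold, NOTCH3, a receptor, 2.50-fold and FOXO3, a forkhead factor, 1.68-fold higher in TFAP2C-high cells. MT1E, a metallothionein, had counts in 4 TFAP2C-high and 16 TFAP2C-low cells and was 10.2-fold higher in TFAP2C-low cells. GCLM, a subunit of the enzyme that starts glutathione synthesis, was 2.65-fold, PLK2, a polo-like kinase, 2.85-fold and NME1, a nucleoside diphosphate kinase, 2.41-fold higher in TFAP2C-low cells. For all 8 genes the groups overlapped.

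**Figure D5:**
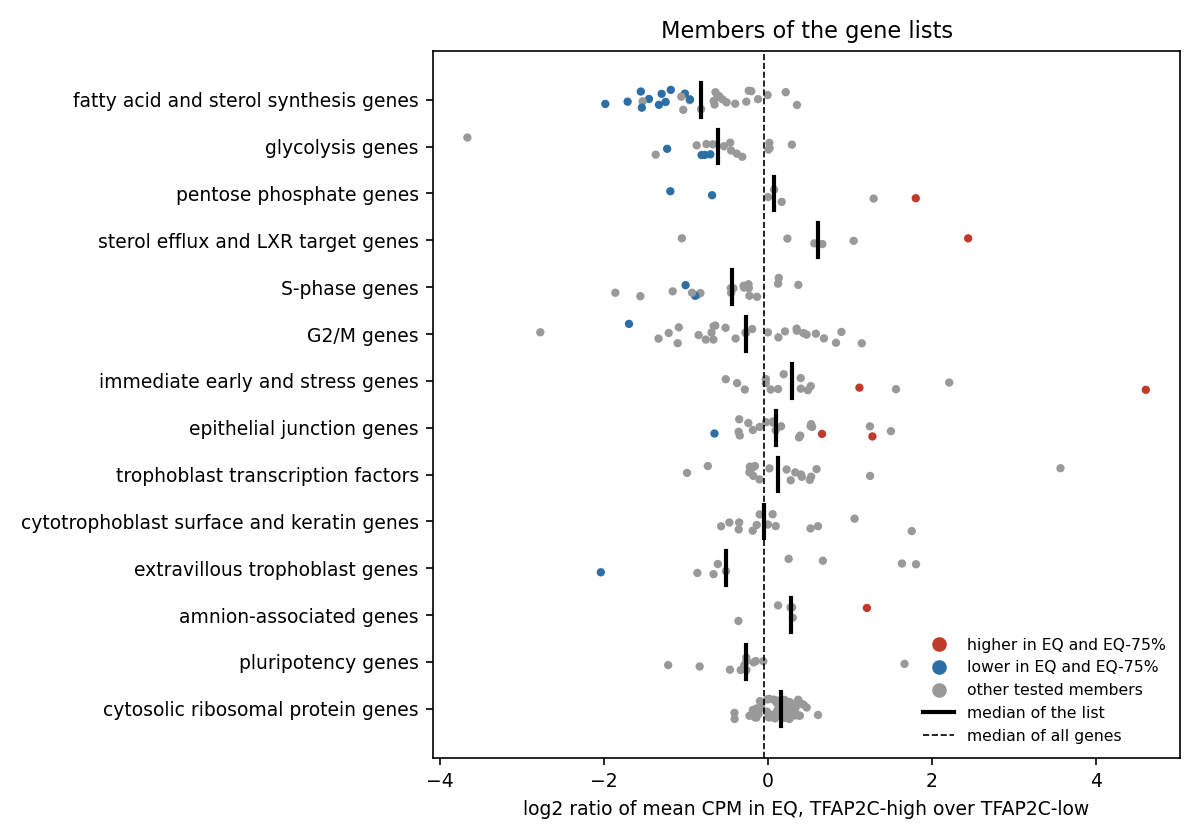
The log2 ratio of mean CPM in EQ (TFAP2C-high over TFAP2C-low) for the compared members of 14 gene lists, each point 1 gene, red or blue where it was past the limits in EQ and EQ-75%. Black bars are list medians and the dashed line is the median of all genes compared (-0.04). Of the lists drawn, fatty acid and sterol synthesis, chosen after values were seen, has the lowest median (-0.81). The syncytiotrophoblast (-2.22) and p53 (-0.93) lists, with 3 and 6 genes compared, have lower medians and are not drawn. Their median pair shares were 44.3% and 46.6%.

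The genes whose values followed TFAP2C most closely over the 48 cells were found by Spearman's rho among 8614 genes with a mean of at least 10 CPM. The highest were SH3BGRL2 at 0.58, FOSL2 at 0.55, FAM213A, a thioredoxin-like protein, at 0.55, SERINC5 at 0.54 and SLC12A2 at 0.52, followed by RPL37, ZFAS1, SH3GLB2, CRELD1 and METTL23 at 0.49 to 0.51. The lowest were EXOSC6 at -0.51, PRKACB at -0.51, SERPINH1, SEMA5A and TPI1 at -0.50, and CMPK1, SAMD5, NR6A1, RPUSD3 and MRTO4 at -0.48 to -0.49. RPL37 and ZFAS1, a host of small nucleolar RNAs, had pair shares of 79.3% and 74.3% but folds of 1.30 and 1.49, under the limit of 1.5. The ribosomal protein genes as a whole had a median log2 ratio of 0.16, and of 0.10 without TB 7 and TB 9. Of these genes 67 of 82 were above 0, beside 47.4% of all genes compared. No gene's rho passed 0.58 in either direction, and these values are descriptions over cells of 1 sample that share library and depth.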

How the data were processed

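Expected counts per gene were deposited by the authors, who trimmed the reads, mapped them to GRCh38 protein-coding transcripts with Bowtie 1.2.3 and estimated the counts with RSEM 1.2.31 (CASAVA 1.8.2 is also in the submitters' processing notes). The EQ, EQ-75% and EQ-Vary tables were used. Expected counts were rounded to whole numbers and scaled to CPM by each cell's sum, and 1 CPM was added to group means for folds. Of 17492 gene IDs, 17431 matched the gene table. Doublets were removed by the authors from cell images before deposit.

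Genes had a mean of at least 5 CPM over the 48 cells. Named genes were the 15 with the highest and the 15 with the lowest pair share (mean of at least 10 CPM, past the limits in EQ and EQ-75%), of each list the members past the limits in both experiments and the 3 of highest mean, the AP-2 family, and the 10 highest and 10 lowest Spearman correlations with TFAP2C. Y-linked genes and XIST were left out. Of the named genes, 1 is not reported here. The cells, lists and limits were chosen with earlier results of these data known, and 3 lists after values were seen. No test was made, because the TB cells are 1 sample. Depth is the sum of counts per cell; intervals cover counting error only.

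Python 3.11.15 (numpy 2.4.6, pandas 2.3.3, scipy 1.17.1) and R 4.3.3 were used, with TMM factors from edgeR 4.0.16 and size factors from DESeq2 1.42.0 as other scalings. The calculation was checked on simulated data. Other scalings, limits, divisions and sets of cells were tried. Promoter sequences came from the RefSeq table of GRCh38.p14.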

Additional observations from a re-analysis of the deposited data

How the results depend on the processing

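The sign of the log2 ratio of each of the 30 genes with extreme pair shares was the same under all 17 alternatives. Alternatives that change only the limits, the filter on mean CPM or the CPM added to the means cannot turn a sign. The 30 genes were also chosen as the extremes of the same cells, so their shared sign is a description. Of all 129 named genes, 25 changed sign under at least 1 alternative. Of these, 23 were not past the limits in EQ, and the other 2 were PGLS (-0.10) and RRM1 (0.21), both under median-of-ratios scaling. The cause was not tested. The upper against the lower 16 cells gave 627 higher and 802 lower genes in EQ, and 483 and 560 in both experiments, with fewer cells in each group. Stricter limits gave fewer genes by construction, with 225 higher and 218 lower at a fold of 2 and 116 and 109 at pair shares of 70% and 30%. All other counts in EQ were within 1.5 times, from 281 to 530 higher and from 275 to 497 lower. They were often not the same genes. TMM factors gave 418 higher and 374 lower genes, of which 279 and 240 were shared, and groups set by TFAP2C in EQ-75% gave 394 and 338, of which 242 and 230 were shared. With unrounded counts TB 24 and TB 38 exchange places, and 343 higher and 319 lower genes shared 237 and 226. Thinned to 250000 counts per cell, 313 and 345 genes shared 250 and 247. The medians of 8 of the 25 lists changed sign under at least 1 alternative. The alternatives without TB 7 and TB 9, without TB 40 and with TB 24 and TB 38 exchanged were chosen after seeing the data. No paired analysis was possible because the result comes from no test. With 1 TB sample, no spread between cultures can be given.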
